A study of Mus musculus with 10 samples.

Results

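Expression of 10 genes of the insulin-like growth factor (IGF) system was followed through the reprogramming of mouse fibroblasts to pluripotency. The genes were taken by symbol from a list that was chosen with earlier results of these data known. It held the ligand Igf1, the receptors Igf1r and Insr, the receptor substrate Irs1, and the 6 binding proteins Igfbp2, Igfbp3, Igfbp4, Igfbp5, Igfbp6 and Igfbp7. All 10 of the listed genes were found, out of 45706 genes in the deposited tables, and all 10 passed the filter on low counts. In this system, ligands secreted by cells bind the receptor tyrosine kinases IGF1R and INSR, which phosphorylate IRS proteins and thereby feed the PI3K and Akt branch. Secreted binding proteins hold IGFs in the medium and can limit or prolong their action, and IGFBP7 binds IGFs with low affinity and insulin more readily than the classical members do. Fibroblasts are a well-known source of IGFs and of most of these binding proteins, and IGF signalling is used by cultured pluripotent cells.

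RNA was measured in 5 groups with 2 libraries each. The mouse embryonic fibroblasts (MEFs) carried a doxycycline-inducible cassette of Oct4, Klf4, Sox2 and Myc (OKSM) in the Col1a1 locus and the transactivator M2rtTA in the ROSA26 locus, on a C57BL/6 x 129 background, and were kept unsorted in MEF medium without doxycycline. Cells of the same genotype were collected at day 3, 6 and 9 in ESC medium with doxycycline at 1 µg/ml and ascorbic acid at 50 µg/ml. Day 3 thus differs from MEF in the induction of the cassette, the 2 additives and the medium together. Day 3 cells were unsorted, and those of day 6 and day 9 had been sorted for the surface marker SSEA1, to enrich cells on their way to pluripotency. The embryonic stem cells (ESCs) were a single line, V6.5, labelled with the same strain background, unsorted and grown on irradiated feeder cells, which are commonly fibroblasts, in ESC medium with serum and LIF. The series is described as having biological replicates, but the labels do not say whether the libraries of a group came from separate embryos or cultures, so p-values measure the spread between these libraries. With 2 libraries against 2, an exact permutation test cannot go below p = 0.333, and tests were therefore taken from a fit across all genes.

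Libraries held 29585876 to 38275024 estimated reads. CPM are read counts scaled to the library size as adjusted by TMM factors. Pou5f1, which encodes Oct4, was at 2.59 and 3.36 CPM in MEFs and at 223.7 to 323.2 CPM in the 6 induced libraries. Fibroblast marker genes (13 genes, among them Col1a1, Thy1 and Pdgfra) summed to 9691 and 10186 TPM (read counts scaled to transcript length and to the library) in MEFs, 519.7 and 545.1 at day 3, 26.3 and 28.1 at day 6, 12.5 and 12.6 at day 9, and 851 and 898 in ESCs. Of the 13 markers, Lum alone was at 0 in both day 9 libraries, and no marker was at 0 in both ESC libraries. Summed TPM of 5 epithelial markers was at most 5.47 in MEF and day 3 libraries, 249.9 and 260.1 at day 9 and 96.9 and 97.5 in ESCs. Within that list Cdh1 went from 0.0347 and 0.0551 TPM in MEFs to 1.13 and 0.991 at day 3, and Epcam rose too. Krt8 and Krt18 fell, Krt18 from 3.06 and 3.47 to 1.14 and 1.1 TPM. Cldn6 was at most 0.0272 TPM in these libraries. Pluripotency markers (7 genes) summed to at most 1.91 TPM in MEF and day 3 libraries, 79.9 and 82.4 TPM at day 9 and 2467 and 2491 TPM in ESCs. Most of the ESC sum was Dppa5a, at 1845 and 1868 TPM there and 19.2 and 18.6 TPM at day 9. Tfcp2l1 was at 9.44 and 9.23 TPM in ESCs and 3.75 and 3.63 TPM at day 9. The induced libraries stood apart from MEFs and ESCs in sex-linked genes: Xist was at 0.739 and 0.793 CPM in MEFs and at 929.6 to 1317 CPM in the induced libraries, and Ddx3y was at 86.4 and 90.6 CPM in MEFs and at most 0.176 CPM in the induced libraries. In ESCs Xist was at 11.3 and 9.0 CPM and Ddx3y at 26.1 and 26.8 CPM. Comparisons of induced libraries with MEF or with ESC hold this difference too, and its part in the results was not tested. In bulk RNA, fewer cells of a type and less RNA per cell cannot be told apart.

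A gene was called changed at a Benjamini-Hochberg adjusted p under 0.05 over 20165 tested genes in the quasi-likelihood test of edgeR, with a change of at least 2-fold. Between MEF and day 3, 1 of the 10 genes rose (Igfbp3) and 6 fell, where 29.1% of all tested genes were called, 14.6% higher and 14.5% lower. Between day 3 and day 6, 0 rose and 7 fell, against 9.26% and 10.2% of all genes (19.5% in either direction). Between day 6 and day 9, 1 rose (Igfbp2) and 2 fell (Igf1r and Igfbp3), against 5.18% and 2.68% (7.87% in either direction). Over the whole course from MEF to day 9, 0 rose and 8 fell, against 24.1% and 19.8% (43.9% in either direction). From day 9 to ESC, 5 rose and 2 fell, against 18.6% and 14.3% (32.9% in either direction). In ESCs relative to MEFs, 1 was higher (Igfbp2) and 8 were lower, against 25.5% and 20.6% of all genes (46.1% in either direction). The median log2 fold change of the 10 genes was -1.9 at day 3 and -3.18 at day 9 relative to MEF, where the median of all tested genes was 0.08 and 0.19. Every one of these comparisons shares libraries with another, so the counts are not independent of each other. The list was chosen with earlier results of these data known, so these counts and medians are descriptions.

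**Figure D1:**
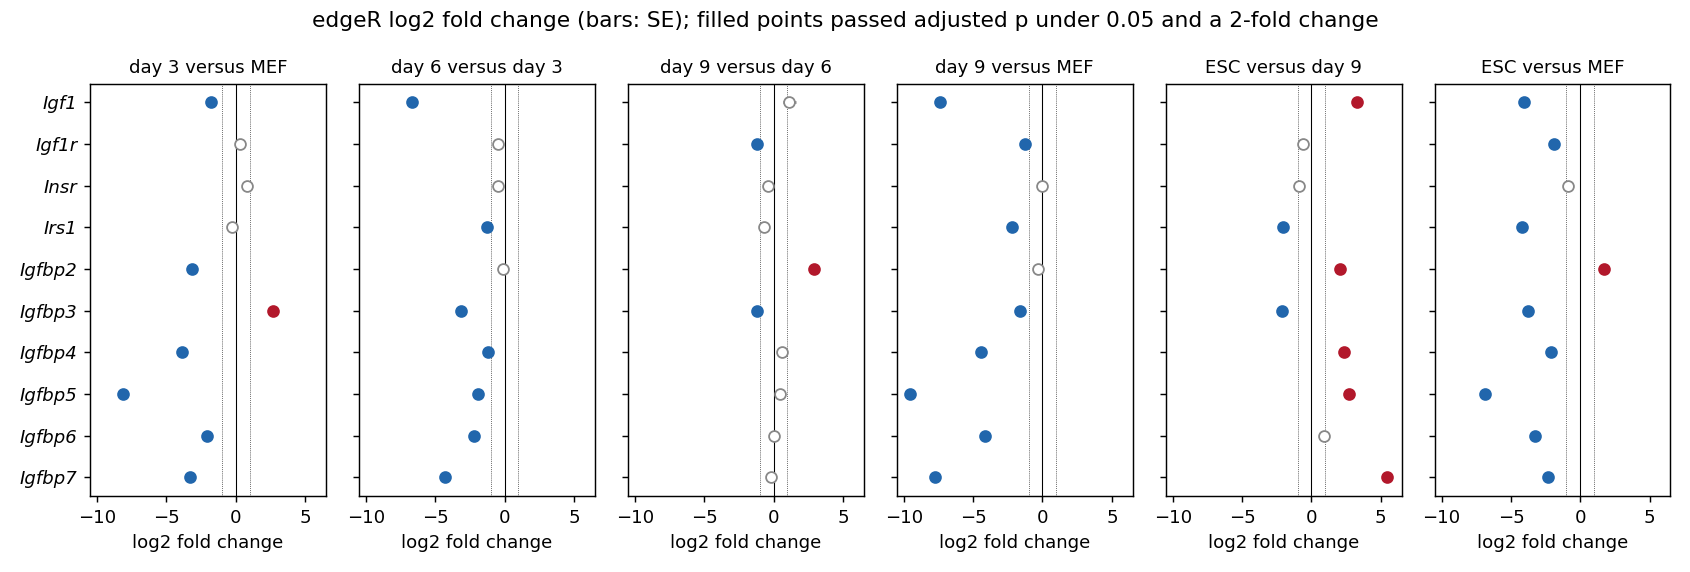
Log2 fold change of each of the 10 genes in 6 comparisons, with bars for the standard error (mostly smaller than the points). Filled red points were higher and filled blue points lower at adjusted p under 0.05 and at least 2-fold; open grey points were not called; dotted lines mark 2-fold. The largest fall is that of Igfbp5, with a log2 fold change of -9.58 between MEF and day 9, and Igfbp2 alone is higher in ESCs than in MEFs.

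Igf1, the ligand (chromosome 10, 87858265 to 87937042, GRCm38, plus strand), fell at day 3 and again at day 6. It stood at 34.0 and 31.8 CPM in the MEF libraries, 9.69 and 9.73 at day 3, 0.0882 and 0.0907 at day 6, 0.225 and 0.177 at day 9, and 1.94 and 1.92 in ESCs. Every induced library lay below both MEF libraries, and the ESC libraries lay between day 3 and day 9. The fall was significant from MEF to day 3 (log2 fold change -1.76, SE 0.09, edgeR adjusted p 2e-10) and from day 3 to day 6 (-6.7, SE 0.2, edgeR adjusted p 1.9e-12). The day 6 value rests on 3 and 3 reads, and the pooled reads of the 2 groups put day 3 at 108.5 times day 6 with an exact 95% interval of 49.6 to 296.8, which covers counting error only. Between day 6 and day 9, with 7 and 7 reads at day 9, the difference of 1.12 on the log2 scale (SE 0.47) did not pass the edgeR test (adjusted p 0.19). In ESCs Igf1 was 3.26 higher than at day 9 on the log2 scale (SE 0.23, edgeR adjusted p 1.3e-08), or 9.76 times by pooled reads (95% interval 5.62 to 18.3). On the log2(TPM + 1) scale the same difference was 0.74, under the 2-fold minimum.

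Igf2, the fetal ligand of the same receptors, was at 2386 and 2381 CPM in MEFs, 1316 and 1332 at day 3, 1027 and 1036 at day 6, 141.1 and 145.2 at day 9, and 8.48 and 11.3 in ESCs. The change from MEF to day 3, with a log2 fold change of -0.85, stayed under the 2-fold minimum, and the fall from day 6 to day 9 passed it (-2.85, SE 0.05, edgeR adjusted p 2.2e-13). In TPM, which is scaled for length, Igf2 exceeded Igf1r by 94.5 and 103 times in the MEF libraries, 42.6 and 41.4 times at day 3, 42.5 and 46.6 times at day 6, 13.4 and 15.0 times at day 9 and 1.28 and 2.29 times in ESCs. Ins1 and Ins2, the insulin genes, had 0 reads in all 10 libraries.

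Of the receptors, Igf1r passed the 2-fold minimum in 3 of the 6 comparisons and Insr in 0. Igf1r, the IGF1 receptor (chromosome 7, 67952827 to 68233668), was at 70.6 and 64.2 CPM in MEFs, 81.0 and 89.6 at day 3, 64.2 and 60.8 at day 6, 28.9 and 26.8 at day 9, and 17.5 and 18.2 in ESCs. The MEF and day 6 ranges touched at 64.2, and the day 9 and ESC libraries were below all others. Igf1r did not pass the 2-fold minimum from MEF to day 3 (log2 fold change 0.34, SE 0.06) or from day 3 to day 6 (-0.45, SE 0.06), and it fell from day 6 to day 9 (-1.17, SE 0.07, edgeR adjusted p 7.1e-09). Over the course from MEF to day 9 it fell by 1.28 on the log2 scale, but scaling by library size alone put this change at -0.99, just under the minimum.

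Insr, the insulin receptor (chromosome 8, 3122061 to 3279617), was at 42.2 and 43.1 CPM in MEFs, 74.4 and 79.2 at day 3, 56.9 and 55.6 at day 6, 42.8 and 41.7 at day 9, and 22.2 and 23.3 in ESCs. The day 9 libraries overlapped the MEF libraries and the day 3 libraries were the highest. None of the 6 comparisons passed the 2-fold minimum for Insr. The closest were ESC with MEF (log2 fold change -0.91, SE 0.05), ESC with day 9 (-0.89, SE 0.05) and day 3 with MEF (0.85, SE 0.05, edgeR adjusted p 8.8e-10). Scaling by library size alone raised the last of these to 1.05, past the minimum, and turned the day 9 difference from MEF from -0.01 to 0.28. In length-scaled units (TPM) the ratio of Insr to Igf1r was 0.279 and 0.313 in MEFs, 0.43 and 0.411 at day 3, 0.413 and 0.425 at day 6, 0.69 and 0.731 at day 9, and 0.59 and 0.595 in ESCs. Igf1r was thus the more abundant of the pair in every library. Igf2r, the scavenger receptor that removes IGF2, was at 663 and 660.2 CPM in MEFs, 214.6 and 223.5 at day 3, 97.4 and 96.3 at day 6, 93.0 and 93.7 at day 9, and 174.2 and 175 in ESCs. It fell at day 3 (log2 fold change -1.59, SE 0.03, edgeR adjusted p 7.6e-15) and at day 6 (-1.18, SE 0.03, edgeR adjusted p 8.1e-13).

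Irs1, the adaptor that both receptors phosphorylate (chromosome 1, 82233101 to 82291416), was at 64.4 and 65.7 CPM in MEFs, 54.7 and 56.3 at day 3, 24.0 and 22.0 at day 6, 12.5 and 15.8 at day 9, and 3.39 and 3.63 in ESCs. No library of a stage reached the level of the stage before it. The steps from day 3 to day 6 (log2 fold change -1.27, SE 0.07, edgeR adjusted p 2.6e-09) and from day 9 to ESC (-2.02, SE 0.12, edgeR adjusted p 1.6e-09) passed the 2-fold minimum, while MEF to day 3 (-0.23, SE 0.07) and day 6 to day 9 (-0.69, SE 0.09) did not. On the log2(TPM + 1) scale the 2 called steps were -0.83 and -0.51, under the minimum. Irs2, the other widely used substrate, rose at day 3, from 38.2 and 37.7 to 76.9 and 80.3 CPM (log2 fold change 1.05, SE 0.05, edgeR adjusted p 1.7e-10), and was back at 35.5 and 35.5 at day 9. In ESCs it was at 7.92 and 6.84 CPM, a fall of 2.27 on the log2 scale from day 9. In TPM, Irs2 over Irs1 went from 1.4 and 1.35 in the MEF libraries to 3.31 and 3.36 at day 3, 4.74 and 5.31 at day 6, 6.68 and 5.3 at day 9, and 5.51 and 4.44 in ESCs. The day 6, day 9 and ESC libraries overlapped in this ratio.

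**Figure D2:**
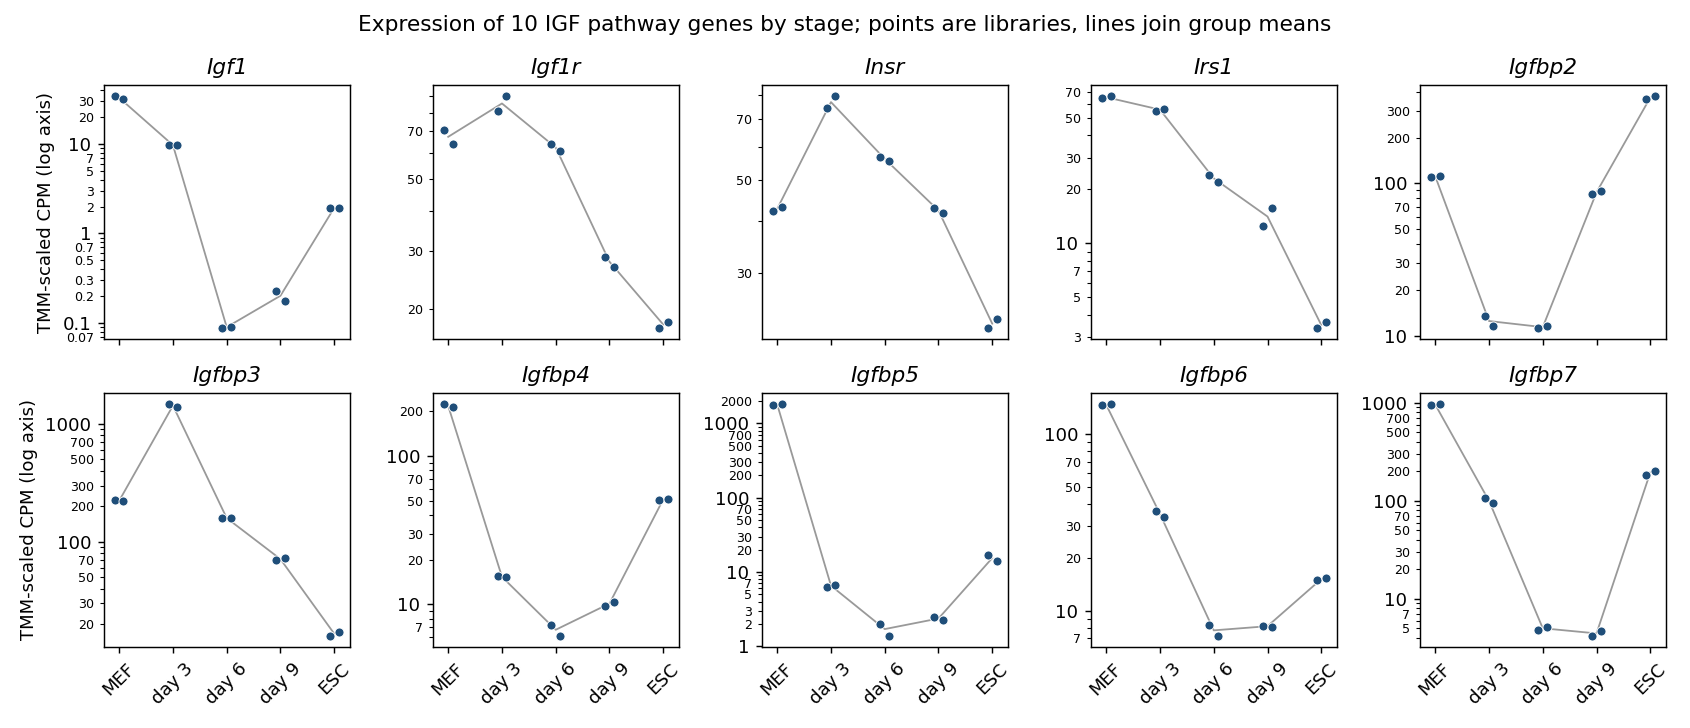
Level of each of the 10 genes in TMM-scaled CPM on log axes (each panel has its own range). Points are single libraries, 2 per group, and grey lines join the group means. Igfbp3 peaks at day 3, Igfbp2 has its lowest values at day 3 and day 6 and its highest in ESCs, and Igf1, Igfbp4, Igfbp5, Igfbp6 and Igfbp7 have their lowest values at day 6 or day 9.

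RefSeq promoters (GRCm38.p6) were found for 9 of the 10 genes, and the 250 bases before the start are shown for 4 binding proteins: Igfbp3, which peaks at day 3, Igfbp5, which has the largest fall at day 3, Igfbp2, which is highest in ESCs, and Igfbp4, which has a TATA word. Sequences run 5′ to 3′ on the strand of the gene. Capitals mark matches on either strand to GGGCGG (a GC box, bound by Sp and Klf factors) and GGGNGTGG (a word resembling the Klf4 site). They also mark TATAAA and TGANTCA, which is looser than the AP-1 site because that site has C or G at N. These words can overlap each other. The word CANNTG (an E-box) was also searched and is not marked; it was found in 7 of the 9 promoters and in 66.2% of all promoters.
Igfbp3, chr11:7213924-7214173, minus strand: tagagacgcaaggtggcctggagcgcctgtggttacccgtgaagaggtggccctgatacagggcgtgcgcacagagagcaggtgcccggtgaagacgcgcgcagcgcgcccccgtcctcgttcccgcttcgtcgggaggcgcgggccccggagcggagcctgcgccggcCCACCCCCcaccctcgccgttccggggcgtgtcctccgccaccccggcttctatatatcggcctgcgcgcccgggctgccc
Igfbp5, chr1:72874866-72875115, minus strand: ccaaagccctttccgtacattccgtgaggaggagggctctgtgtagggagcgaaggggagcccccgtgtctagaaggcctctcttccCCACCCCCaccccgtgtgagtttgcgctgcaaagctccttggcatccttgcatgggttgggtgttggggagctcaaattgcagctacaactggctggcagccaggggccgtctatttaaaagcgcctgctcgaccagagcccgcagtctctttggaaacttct
Igfbp2, chr1:72824230-72824479, plus strand: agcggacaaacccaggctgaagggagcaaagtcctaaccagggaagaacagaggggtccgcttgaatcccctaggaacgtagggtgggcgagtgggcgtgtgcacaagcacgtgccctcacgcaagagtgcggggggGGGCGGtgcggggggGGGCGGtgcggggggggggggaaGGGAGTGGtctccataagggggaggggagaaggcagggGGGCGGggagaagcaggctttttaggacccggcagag
Igfbp4, chr11:99040994-99041243, plus strand: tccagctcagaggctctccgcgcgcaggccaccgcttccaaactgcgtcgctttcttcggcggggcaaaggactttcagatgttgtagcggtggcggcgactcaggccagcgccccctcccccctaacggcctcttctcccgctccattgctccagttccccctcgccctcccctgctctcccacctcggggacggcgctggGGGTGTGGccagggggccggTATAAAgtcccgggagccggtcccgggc

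The word GGGNGTGG was found in 6 of the 9 promoters (Irs1, Igfbp2, Igfbp3, Igfbp4, Igfbp5 and Igfbp6), and in 15.9% of all 32851 RefSeq promoters of this length. The shares depend on base composition: among promoters with at least 60% G and C it was found in 25.9%, and in 4 of the 6 of these genes that reach that content. GGGCGG was found in 4 of the 9 (Igf1r, Irs1, Igfbp2 and Igfbp7) and in 32.7% of all promoters; at 60% G and C or more it was in 4 of the 6 and in 76.5% of all. TATAAA was found in Igfbp4, where it begins 28 bases before the start, against 12.4% of all promoters. It was also found in Igfbp6, on the opposite strand and 148 bases before the RefSeq start. At 60% G and C or more it was in 1 of the 6 and in 2.58% of all. Only this exact word was searched, and similar AT-rich stretches were not counted. TGANTCA was found in Igf1 alone, as TGAATCA (not an AP-1 site), against 6.75% of all promoters. At 60% G and C or more it was in 0 of the 6 and in 2.85% of all. The RefSeq start lay 2043 bases from the annotated start of the transcript with most reads for Igf1, 570 for Igf1r and 176 for Igfbp6. For the other promoters this distance was 0 to 26 bases. Igfbp3, Igfbp5 and Igfbp6 hold a GGGNGTGG match as CCACCCCC, on the opposite strand, and these genes had log2 fold changes of 2.68, -8.11 and -2.05 at day 3. These matches describe the sequences and say nothing of binding.

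The 6 binding proteins did not move in one direction. Igfbp5, a binding protein abundant in mesenchymal cells that also attaches to extracellular matrix (ENSMUSG00000026185.8, chromosome 1, 72857932 to 72874884, minus strand), had the largest fall of the 10 genes at day 3. It was at 1796 and 1811 CPM in MEFs, 6.33 and 6.74 at day 3, 2.0 and 1.39 at day 6, 2.44 and 2.27 at day 9, and 16.8 and 14.0 in ESCs. Between MEF and day 3 it fell 276.3-fold (log2 fold change -8.11, SE 0.07, edgeR adjusted p 4.5e-18), with 235 and 228 reads left in the day 3 libraries. A further fall followed at day 6 (-1.94, SE 0.15, edgeR adjusted p 7.7e-08), which was -0.45 on the log2(TPM + 1) scale. In ESCs it was 2.71 higher than at day 9 (SE 0.12, edgeR adjusted p 6.5e-11) and 0.97 higher on the log2(TPM + 1) scale. ESCs stood at 0.855% of the MEF level.

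Igfbp3, the main carrier of IGFs in serum (ENSMUSG00000020427.9, chromosome 11, 7206086 to 7213923, minus strand), was the 1 gene of the 10 that rose at day 3. It was at 224.2 and 222.0 CPM in MEFs, 1468 and 1397 at day 3, 158.4 and 159.5 at day 6, 70.2 and 72.4 at day 9, and 16.0 and 17.3 in ESCs. The day 3 libraries were above all others and each later stage lay below the one before it. The rise was 6.42-fold (log2 fold change 2.68, SE 0.04, edgeR adjusted p 2.3e-16) and the fall to day 6 was 9.01-fold (-3.17, SE 0.04, edgeR adjusted p 2.1e-16). Igfbp3 fell again from day 6 to day 9 (-1.16, SE 0.04) and from day 9 to ESC (-2.1, SE 0.05). Sorting began between day 3 and day 6, so time and selection cannot be told apart in the fall to day 6.

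Igfbp2, a binding protein of fetal tissues that is also made by pluripotent cells (ENSMUSG00000039323.16, chromosome 1, 72824503 to 72852474, plus strand), fell and then returned. It was at 110.0 and 112.6 CPM in MEFs, 13.5 and 11.6 at day 3, 11.3 and 11.6 at day 6, 85.6 and 89.2 at day 9, and 359.4 and 371.7 in ESCs. Day 3 and day 6 overlapped, day 9 lay below MEF, and ESC lay above all other groups. The fall to day 3 was 8.88-fold (log2 fold change -3.15, SE 0.06, edgeR adjusted p 3.6e-15). The rise from day 6 to day 9 was 7.65-fold (2.93, SE 0.06, edgeR adjusted p 4.3e-13), and that from day 9 to ESC was 4.18-fold (2.06, SE 0.04, edgeR adjusted p 1.8e-14). Igfbp2 lies tail to tail with Igfbp5, with 5457 bases between the annotated ends, and the pair differed from MEF to ESC by log2 fold changes of 1.71 and -6.87.

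Igfbp7, a matrix-associated family member (chromosome 5, 77349240 to 77408041, minus strand), had the highest TPM of the 6 in MEFs (507.1 ± 2.86, SD, n = 2), while Igfbp5 had the higher CPM. Igfbp7 was at 954.4 and 966.8 CPM there, 106.2 and 94.0 at day 3, 4.79 and 5.2 at day 6, 4.21 and 4.65 at day 9, and 185.8 and 203.8 in ESCs. It fell in both of the first steps, 9.59-fold at day 3 (log2 fold change -3.26, SE 0.06, edgeR adjusted p 1.8e-15) and 20-fold at day 6 (-4.32, SE 0.09, edgeR adjusted p 2.7e-14). Day 6 and day 9 did not pass the test of their difference (edgeR adjusted p 0.42), and ESCs were 43.7-fold above day 9 (5.45, SE 0.08, edgeR adjusted p 6.9e-16). That was the largest rise of the 10 genes from day 9 to ESC.

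Igfbp4, an inhibitory binding protein that the protease PAPPA cleaves (chromosome 11, 99041244 to 99054392, plus strand), was at 223.4 and 212.8 CPM in MEFs, 15.4 and 15.2 at day 3, 7.29 and 6.14 at day 6, 9.77 and 10.4 at day 9, and 50.8 and 51.1 in ESCs. It fell 14.3-fold at day 3 (log2 fold change -3.84, SE 0.05, edgeR adjusted p 3.5e-16) and 2.27-fold at day 6, and was 5.05-fold higher in ESCs than at day 9 (2.34, SE 0.06, edgeR adjusted p 2.5e-13). Igfbp6, which prefers IGF2 over IGF1 (chromosome 15, 102144362 to 102149511, plus strand), was at 145.6 and 147.5 CPM in MEFs, 36.8 and 33.8 at day 3, 8.26 and 7.23 at day 6, 8.23 and 8.11 at day 9, and 14.9 and 15.3 in ESCs. It fell 4.15-fold at day 3 and 4.56-fold at day 6, and its difference between ESC and day 9 (log2 fold change 0.89, SE 0.08) stayed under the 2-fold minimum. Both genes were lowest in the sorted cells, with Igfbp6 at day 6 and day 9 not passing the test of their difference (edgeR adjusted p 0.57).

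These courses changed which binding protein led. The 6 genes summed to 937.5 and 920.8 TPM in the MEF libraries, 396.7 and 389.2 at day 3, 48.4 and 47.9 at day 6, 63.1 and 65.2 at day 9, and 325.1 and 331.4 in ESCs. Igfbp7 held 54.3% and 54.9% of this sum in the MEF libraries, followed by Igfbp5 with 15.9% and 15.9%. Igfbp3 held 78.0% and 78.9% at day 3 and 70.2% and 70.9% at day 6. Igfbp2 held 65.1% and 64.9% at day 9, with Igfbp3 at 22.5% and 22.3%, and 58.1% and 57.4% in ESCs, with Igfbp7 at 32.2% and 34.0%. Each leader was ahead by far more than the difference between the libraries of its group. In TPM the order of all 10 genes began with Igfbp7, Igfbp5 and Igfbp4 in MEFs, with Igfbp3, Igfbp7 and Igfbp6 at day 3, with Igfbp3, Igf1r and Igfbp2 at day 6, with Igfbp2, Igfbp3 and Igfbp6 at day 9, and with Igfbp2, Igfbp7 and Igfbp4 in ESCs. The place of Igfbp4 in MEFs and ESCs rests partly on short transcripts, whose reads weigh more in TPM. Its transcript Igfbp4-004, of 785 bases, held 22.55% and 21.46% of its reads in MEFs and 11.85% and 9.34% in ESCs. The neighbours in this order whose libraries overlapped were Igf1 and Igf1r in MEFs (7.6 ± 1.4 and 7.29 ± 0.594 TPM, SD, n = 2) and Igfbp4 and Irs1 at day 6 (1.25 ± 0.0493 and 1.2 ± 0.0796 TPM, SD, n = 2) and Igfbp5 and Insr in ESCs (1.34 ± 0.213 and 1.21 ± 0.0261 TPM, SD, n = 2).

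**Figure D3:**
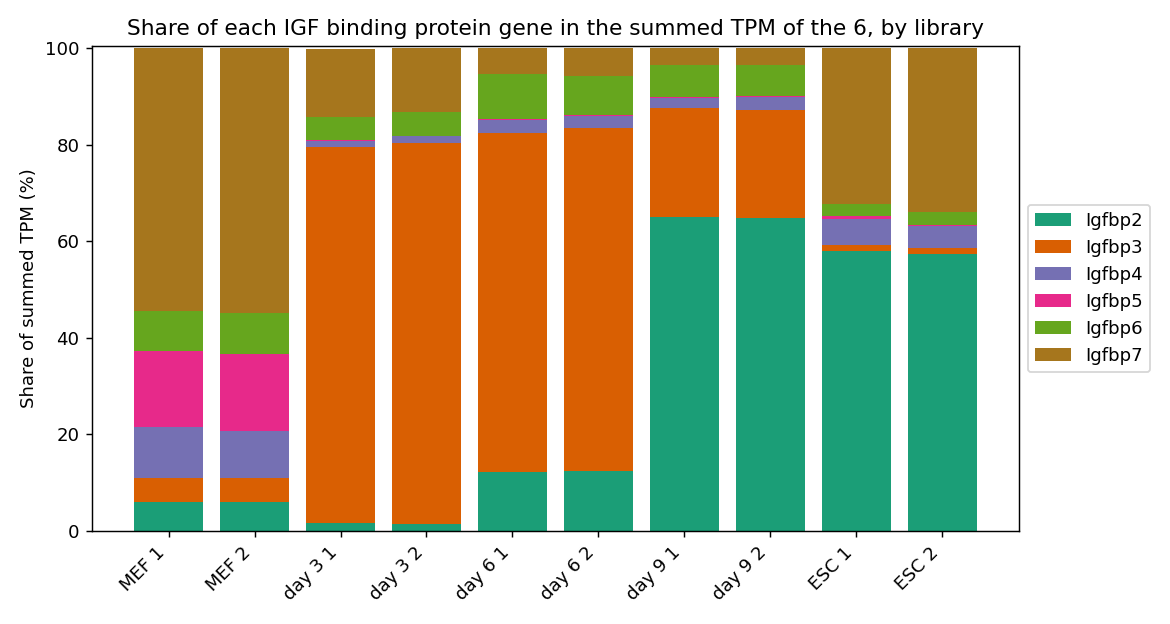
Share of each binding protein gene in the summed TPM of the 6, in percent, for each of the 10 libraries. The largest segment is Igfbp7 in MEFs (54.3% and 54.9%), Igfbp3 at day 3 (78.0% and 78.9%) and day 6 (70.2% and 70.9%), and Igfbp2 at day 9 (65.1% and 64.9%) and in ESCs (58.1% and 57.4%).

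Levels in ESCs were set beside those of fibroblast markers, because the ESCs were grown on feeder cells. From day 9 to ESC, 12 of the 13 fibroblast markers rose, where 18.6% of all tested genes rose. Of the 10 IGF genes, 5 rose in the same step: Igf1, Igfbp2, Igfbp4, Igfbp5 and Igfbp7. The 13 markers stood in ESCs at 1.11% to 14% of their MEF level (median 7.98%), and at day 9 at 0 to 2.87% (median 0.262%). In ESCs Igfbp5 (0.855%) lay below the lowest marker. Irs1 (5.39%), Igf1 (5.88%), Igfbp3 (7.45%) and Igfbp6 (10.3%) lay within the range of the markers. Igfbp7 (20.3%), Igfbp4 (23.4%), Igf1r (26.5%), Insr (53.3%) and Igfbp2 (328.4%) lay above all 13 markers. Lying above these 13 was not particular to the IGF genes. Of 4 muscle markers, Des (69.9%) and Acta1 (27.7%) did so too, whereas Myog (12.1%) and Myod1 (4.01%) did not. The part of feeder RNA in the ESC values was not tested. At day 9, where the fibroblast markers were near 0, 7 of the 10 genes lay above all 13 markers, from Igfbp4 at 4.61% to Insr at 99.1% of the MEF level, and Igfbp2 was at 78.5%.

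**Figure D4:**
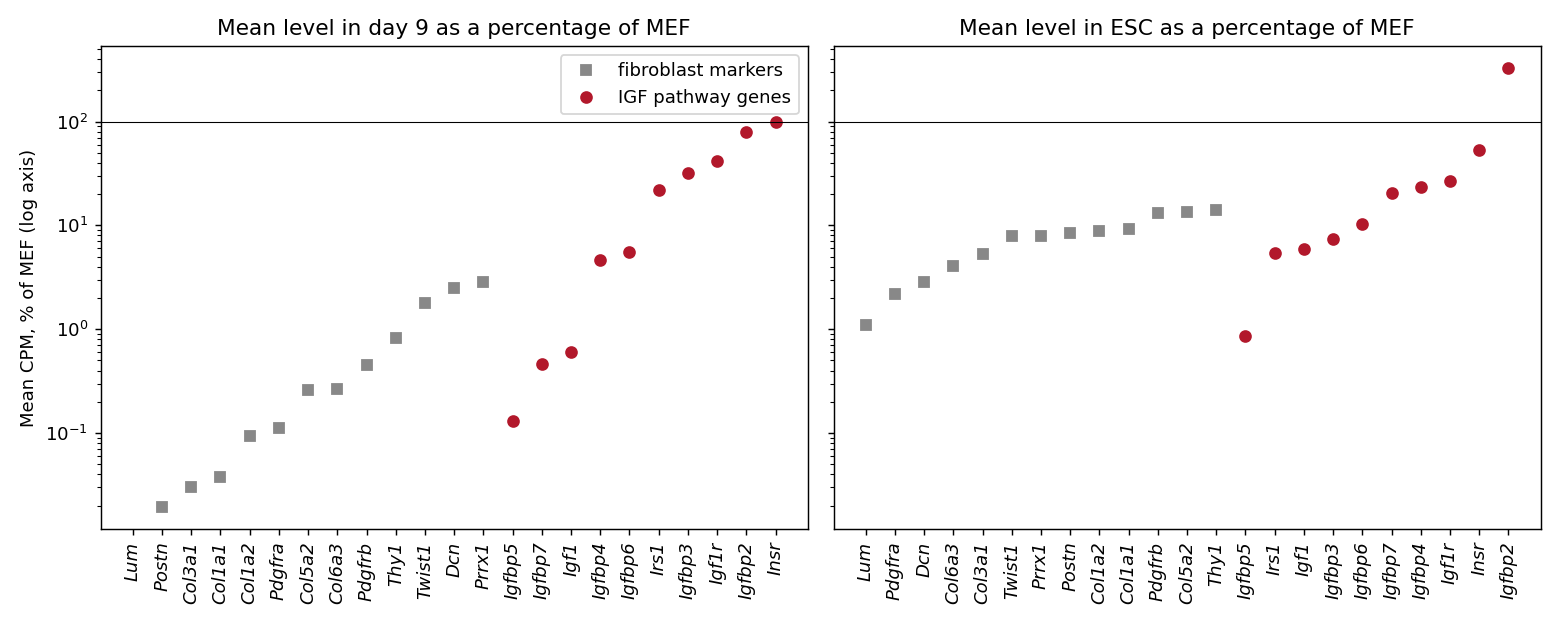
Mean CPM at day 9 (left) and in ESCs (right) as a percentage of the mean in MEFs, on a log axis, for 13 fibroblast markers (grey squares) and the 10 IGF genes (red circles), each sorted by value. The line marks 100%. Lum is not drawn at day 9 because its value there is 0. In ESCs the markers span 1.11% to 14%, Igfbp5 lies below them at 0.855%, and 5 of the IGF genes lie above them.

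Transcript shares differed between groups for Igfbp4 and Igfbp2, and these differences were not tested. For Igfbp4, the longest of 6 transcripts, Igfbp4-001, held 69.41% and 70.38% of the gene's reads in MEFs, 82.13% and 79.77% at day 3, 97.86% and 96.75% at day 6, 99.39% and 97.47% at day 9, and 81.61% and 85.88% in ESCs. The remainder was mostly on Igfbp4-004, a processed transcript of 785 bases, with 22.55% and 21.46% in MEFs and 0% in the 4 day 6 and day 9 libraries. The sorted libraries were thus above all others in the share of Igfbp4-001, and they hold 203 to 410 Igfbp4 reads against 6047 and 6980 in MEFs. Igfbp4 at day 6 was at 1.25 TPM against 93.7 in MEFs, and at 3.08% of the MEF level in CPM. For Igfbp2, Igfbp2-001 held 63.5% and 64.9% of the reads in MEFs, 69.64% and 77.07% at day 3, 55.8% and 55.07% at day 6, 62.68% and 63.32% at day 9, and 67.7% and 69.75% in ESCs. The day 6 libraries were the lowest, and the day 3 and ESC libraries overlapped. For Igfbp5 the split between its 2 transcripts varied within a group, with Igfbp5-001 at 99.99% and 71.72% at day 3. Igf1r, Irs1 and Igfbp6 had a single annotated transcript.

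The wider pathway was read from a list of 47 other genes, also chosen with earlier results known, of which 43 were tested. At day 3 relative to MEF 7 rose and 6 fell (14.6% and 14.5% of all tested genes), at day 6 relative to day 3 2 rose and 5 fell (9.26% and 10.2% of all), and at day 9 relative to day 6 1 rose and 2 fell (5.18% and 2.68% of all). From MEF to day 9, 6 rose and 10 fell (24.1% and 19.8% of all), from day 9 to ESC 8 rose and 6 fell (18.6% and 14.3% of all), and in ESCs relative to MEFs 6 were higher and 12 lower (25.5% and 20.6% of all). The median log2 fold change of the 43 genes was 0.09 at day 3 and -0.12 at day 9 relative to MEF.

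Of 7 tested genes for other binding proteins, the acid-labile subunit and proteolysis, 5 fell and 1 rose from MEF to day 3, where 14.5% of all tested genes fell and 14.6% rose. Stc2, which encodes an inhibitor of PAPPA, fell by 3.92 on the log2 scale (SE 0.07, edgeR adjusted p 1.5e-15), from 74.6 and 72.6 to 5.01 and 4.7 CPM, and Pappa2, a protease of IGFBP5, fell by 3.26 (SE 0.26, edgeR adjusted p 4.4e-08). Igfbpl1, a relative of IGFBP7, had 1 read in the 2 MEF libraries together and 158 at day 3, a ratio of 133.3 with an exact 95% interval of 23.6 to 5297. It stood at 35.3 and 36.5 CPM at day 6, 28.4 and 32.3 at day 9, and 5.19 and 4.35 in ESCs. Pappa, at 144.7 and 144.7 CPM in MEFs and 10.3 and 9.77 at day 9, fell at day 9 relative to day 6 by 1.24 on the log2 scale (SE 0.06, edgeR adjusted p 1.3e-09). Stc1, a relative of Stc2, fell at day 6 relative to day 3 by 4.26 (SE 0.34, edgeR adjusted p 6.9e-08), from 3.85 and 3.72 to 0.147 and 0.242 CPM.

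In the PI3K to Akt branch, 18 of 20 genes were not called at day 3, where 29.1% of all tested genes were called. At day 6 relative to day 3, 20 of 20 were not called (19.5% of all were called). The same held for 20 of 20 at day 9 relative to day 6 (7.87% of all were called). From MEF to day 9, 3 rose and 1 fell (24.1% and 19.8% of all). From day 9 to ESC, 0 rose and 1 fell (18.6% and 14.3% of all). In ESCs relative to MEFs, 1 was higher and 4 were lower (25.5% and 20.6% of all). Pik3cb, a catalytic subunit of PI3K, rose from MEF to day 9 by 2.6 on the log2 scale (SE 0.08, edgeR adjusted p 4.4e-13), from 6.69 and 8.41 to 47.3 and 45.1 CPM. Among the adaptors Irs4 rose at day 3 on 20 reads against 1 in MEFs, and in ESCs it had 33 reads against 4 at day 9. Irs3 rose at day 6 relative to day 3, from 0.35 and 0.532 to 1.23 and 1.18 CPM (log2 fold change 1.45, SE 0.42, edgeR adjusted p 0.0092). Igfals, the acid-labile subunit of serum IGF complexes, rose in ESCs relative to MEFs on 321 reads against 5, a ratio of 53.8 (95% interval 22.8 to 166.9).

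Other genes with courses most like those of the 10 were ranked by the root mean square difference of centred log2 CPM over the 5 group means, among 8045 protein-coding genes at 20 CPM or more. The closest to Insr were Rai14 and Cdkn1b (differences of 0.04 and 0.05), and Ctdsp2 was close to Igf1r (0.16). Igfbp7 was followed most closely by Jph2 and Loxl1 (0.12 and 0.23), Igfbp4 by Unc5b and Stc2 (0.24 and 0.33), and Igfbp6 by Fosl2 and Fzd2 (0.24 and 0.27). For Igfbp3 they were Scara3 and Daam2 (0.32 and 0.48), for Igfbp5 Tnmd and Nov (0.42 and 0.47), for Irs1 Cacna1c and Dclk1 (0.26 and 0.33), for Igf1 Nedd9 and Prrx2 (0.54 and 0.58), and for Igfbp2 Dusp9 and Inhbb (0.7 and 0.8). Among the 10 genes themselves, the closest pair was Igf1r and Insr (0.44), and the most distant was Igfbp3 and Igfbp5 (4.07). These are descriptions over 5 stages that share libraries.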

How the data were processed

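RNA was measured by stranded poly(A) sequencing with single reads of 50 nt, per the labels' protocols. The authors deposited 1 table per library; the submitters' processing notes name Salmon 0.8.2 and mm10, and the annotation release is not given in the sources used here. Per the file headers, the deposited tables hold estimated counts and TPM for 109617 transcripts. Effective lengths were the same in all 10 tables. Values were summed to 45706 genes by the gene ID and symbol in the deposited names, and estimated counts were rounded. Groups and replicate numbers came from the sample titles. Coordinates are from GENCODE M21 (GRCm38), which holds 98.8% of the gene IDs.

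Of these, 20165 passed filterByExpr at a count of 10 and a total of 15. CPM values are TMM-scaled. Tests used the quasi-likelihood F statistic in edgeR 4.0.16 under R 4.3.3, in 1 model of the 5 group means over the 10 libraries without a block, and SE is the log2 fold change over the root of F. Alternatives were DESeq2 1.42.0, limma 3.58.1 on log2(TPM + 1) and log2(TPM + 0.1), other filters, scalings, thresholds and samples, a replicate block, and each library left out; the edgeR test was tested on simulated data. No pair of replicates agreed within sampling noise (chi-square per degree of freedom 2.7 to 4.91). The members and lists were chosen with earlier results of these data known. All 10 listed genes are named. Of the other pathway genes, each comparison names at most the 2 largest rises and falls, besides Igf2, Igf2r and Irs2. For likeness, 2 genes are named per member (prior count 2), except for Igf1r, where 1 is not reported here. Depth was 29585876 to 38275024 reads per library; intervals cover counting error only.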

Additional observations from a re-analysis of the deposited data

How the results depend on the processing

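The numbers of the 10 genes called were the same in all 6 comparisons under DESeq2, no low-count filter, the stricter filter (10 CPM in 2 libraries), fits to the 2 groups compared, DESeq2 size factors and the replicate block. The block gave 7, 7, 3, 8, 7 and 9 called genes, in the order in which the comparisons are given in the report; libraries with equal replicate numbers had deviations that correlated by 1e-04 on average (-0.0205 to 0.0222 over 10 pairs of groups), so the numbers showed no pairing. In the fit to day 6 and day 9 alone, 9 of the 10 genes passed the filter. From day 9 to ESC, 7 genes were called, against 4 with limma on log2(TPM + 1), with or without the filter on low values. From day 3 to day 6, 7 were called, against 5 in both of those limma fits. From day 6 to day 9, 3 were called, against 6 with no fold change minimum. For single genes, 655 of 659 values kept their direction, 11 lost and 15 gained a call. Igfbp6 from day 6 to day 9 went from 0.07 to -0.01 in the 3 limma fits and to between -0.02 and 0.17 with 1 day 6 library left out (-0.02 without day 6 replicate 2), and Insr at day 9 relative to MEF went from -0.01 to 0.28 under library-size scaling. The cause was not tested. That scaling moved the median of all genes at day 3 relative to MEF from 0.08 to 0.29, at day 9 relative to MEF from 0.19 to 0.48 and in ESC relative to MEF from 0.1 to 0.44. With each library left out in turn, 599 of 600 values kept their direction and their call. Depth limits Igf1 at day 6 (3 reads in each library) and day 9 (7 in each).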
